A study of Mus musculus with 14 samples.

Results

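Semaphorins, plexins and neuropilins form one guidance system, and its 31 mouse genes were followed here as a single gene family: 20 semaphorins, 9 plexins and 2 neuropilins. The genes were chosen by a list of symbols from the 25229 symbols of one count table and the 55353 symbols of another. All 31 were present in both tables, and all 31 passed the filter on low counts in both. The lowest count of any member in any library was 29 in the first table and 20 in the second. Semaphorins are secreted or membrane-bound ligands that steer growing axons, dendrites and migrating neurons. Plexins are their transmembrane receptors, with a cytoplasmic domain that acts on small GTPases of the Ras and Rap families. Most secreted class 3 semaphorins bind neuropilins, coreceptors that have no such signalling domain and work in a complex with a class A plexin, whereas Sema3e can bind plexin D1 directly. In the cerebral cortex the system is known for the orientation and branching of dendrites of upper-layer neurons and for the routing of callosal axons.

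The RNA came from layer II/III of mouse cerebral cortex at postnatal day 5, in 14 polyadenylated RNA libraries of 4 groups, and every group carried the Lhx2lox/lox genotype. Lhx2 encodes a homeodomain protein of the LIM class, made by progenitors of the cortex and by upper-layer neurons. In the progenitor experiment, in utero electroporation at E15.5 delivered a plasmid for EGFP (control, n = 4) or for Cre-EGFP (labelled mutant, n = 4). For the postmitotic experiment the EGFP plasmid was given to embryos of the genotype Lhx2lox/lox (control, n = 3) or NexCre/+; Lhx2lox/lox (labelled mutant, n = 3). NexCre is a Cre allele at the Neurod6 locus, active in young excitatory neurons, so that it also acts in cells outside the electroporated ones, whereas the Cre plasmid reaches only the cells that took it up. The labels give microdissection of the layer followed by trypsin dissociation and name no sorting step, so RNA of cells without plasmid and of other cell types can be part of each library. Nothing in the labels says that the libraries of a group came from separate animals, and the p-values measure the spread between these libraries, which may be technical in part.

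The 8 progenitor libraries held 22677019 to 29497595 counts each, with every control deeper than every library labelled mutant, and the 6 postmitotic ones 21605777 to 25891416. Lhx2 itself did not show the deletion: its level was 127 ± 9.09 CPM (mean ± SD; a gene's counts scaled to a common library total) in progenitor controls and 129 ± 11.4 in the libraries labelled mutant (exact two-sided permutation p = 0.743), and 146 ± 3.47 against 179 ± 7.39 CPM in the postmitotic experiment (exact permutation p = 0.1, the smallest that 3 against 3 allows). By edgeR, Lhx2 was called higher in the postmitotic libraries labelled mutant, with a log2 fold change of 0.29 ± 0.06 (adjusted p = 0.0276), and the call was lost without any 1 of controls 1, 2 and 3 and mutants 2 and 3. The groups are therefore called by their labels throughout, and mutants 1 to 4 stands for the libraries so labelled. The labels do not say which part of Lhx2 the loxP sites flank, so transcripts without that part may still be counted. The summed level of 4 Y-linked genes (Ddx3y, Eif2s3y, Kdm5d and Uty) was at most 0.0381 CPM in the 4 progenitor controls and 0 in mutant 1, but 155, 99.3 and 170.3 CPM in mutants 2, 3 and 4. Mutant 3 held Xist as well, at 554 CPM. In the postmitotic experiment the Y-linked sum was above 100 CPM in controls 1 and 2 and mutant 3 and at most 0.0462 CPM in the others. Upper-layer markers were abundant in every library (summed 3544 to 4522 CPM over 11 genes), beside markers of astrocytes and radial glia (1120 to 2830 CPM over 12 genes), oligodendrocyte lineage (357 to 736 CPM over 10 genes) and vessels (215 to 578 CPM over 10 genes), so RNA of cell types other than the labelled neurons was present. Markers of meningeal fibroblasts (8 genes) were uneven within groups. They summed to 30.3 to 389 CPM in progenitor controls and 49.3 to 430 CPM in the progenitor libraries labelled mutant.

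The promoter sequences introduce the members on which the results turn: Nrp1 rose in both experiments, Plxna3 rose in the progenitor experiment and differed between the experiments, and Sema3e and Sema7a fell in the postmitotic one. Each stretch covers the 250 bases before the annotated start, 5′ to 3′ on the strand of the gene, on build GRCm38.p6 and credited to RefSeq; all 4 lie on the plus strand and none overlaps an exon of the GENCODE M21 annotation. The Nrp1 stretch lies in an intron of a longer Nrp1 transcript model, and the other 3 lie just outside their gene. Capitals mark CG pairs, the dinucleotide that is dense in CpG-island promoters.
Nrp1, chr8:128358823-128359072: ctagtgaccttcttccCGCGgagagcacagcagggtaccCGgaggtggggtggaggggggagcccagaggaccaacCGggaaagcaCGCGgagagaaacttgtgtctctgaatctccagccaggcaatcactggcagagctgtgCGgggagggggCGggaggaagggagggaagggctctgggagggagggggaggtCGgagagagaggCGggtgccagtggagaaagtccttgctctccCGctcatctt
Plxna3, chrX:74328816-74329065: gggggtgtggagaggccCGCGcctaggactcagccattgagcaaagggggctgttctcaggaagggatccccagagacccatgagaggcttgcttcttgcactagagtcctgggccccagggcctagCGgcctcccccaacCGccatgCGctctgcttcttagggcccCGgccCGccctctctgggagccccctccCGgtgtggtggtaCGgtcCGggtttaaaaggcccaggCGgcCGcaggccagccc
Sema3e, chr5:14025026-14025275: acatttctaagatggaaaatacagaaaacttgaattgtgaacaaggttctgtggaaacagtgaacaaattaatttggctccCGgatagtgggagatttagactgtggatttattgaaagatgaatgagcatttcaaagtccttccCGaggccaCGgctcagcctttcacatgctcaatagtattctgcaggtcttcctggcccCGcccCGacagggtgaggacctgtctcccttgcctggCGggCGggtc
Sema7a, chr9:57939862-57940111: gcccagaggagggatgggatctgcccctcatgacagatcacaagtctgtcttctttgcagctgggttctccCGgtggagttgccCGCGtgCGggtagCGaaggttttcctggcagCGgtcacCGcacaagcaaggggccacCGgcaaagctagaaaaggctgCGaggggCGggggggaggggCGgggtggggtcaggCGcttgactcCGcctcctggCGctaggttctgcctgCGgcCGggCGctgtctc
These stretches hold 11, 12, 7 and 17 CG pairs in that order, so the Sema3e promoter is the poorest in CG and the Sema7a promoter the richest of these 4. RefSeq promoter windows of 300 bases (250 before and 50 after the start) were found for 26 of the 31 members, in 37 windows, with a median of 15 CG pairs against 7 over all 32851 windows. The homeodomain core TAATTA, a palindrome that reads the same on both strands, was in 0 of the 37 member windows and in 5.29% of all windows. The E-box CAGATG, or CATCTG on the other strand, was in 2 member windows (5.41%), one of Sema3c and one of Sema4a, and in 17.2% of all windows. These matches describe letters in a short window and do not locate binding of any factor.

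Compared between genes per kilobase of exon, control levels differed widely within the family, and the same few genes led in both experiments. Sema7a, a membrane semaphorin held by a lipid anchor that signals through integrin receptors and plexin C1, had the highest level, 119.8 ± 14.6 CPM per kb in progenitor and 106 ± 11.7 in postmitotic controls (mean ± SD). Plxna1, a partner of neuropilins, followed with 65.8 ± 4.34 and 47.2 ± 1.16 CPM per kb. Plxnd1, the receptor of Sema3e, had 53.5 ± 6.14 CPM per kb in progenitor and 30.8 ± 2.54 in postmitotic controls. Sema6b, a transmembrane ligand of class A plexins, lay beside it with 39.6 ± 2.10 and 34.5 ± 2.57 CPM per kb. The SDs of Plxnd1 and Sema6b left their order clear in progenitor controls, but in postmitotic controls these neighbours lay close to each other and to Sema6c (29.2 ± 2.31).

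Both neuropilins were far below the plexins they work with: Nrp1 had 4.58 ± 0.212 and 3.10 ± 0.159 CPM per kb and Nrp2 1.24 ± 0.262 and 1.23 ± 0.141. Among secreted ligands Sema3f was highest (7.01 ± 0.293 and 9.27 ± 0.646 CPM per kb). Sema3e stood at 1.60 ± 0.370 and 1.57 ± 0.217. At the low end were Sema3b (0.581 ± 0.0952 and 0.471 ± 0.107), Sema3g (0.614 ± 0.147 and 0.380 ± 0.0324) and Plxnb3 (0.666 ± 0.226 and 0.213 ± 0.0368), whose spreads overlapped in progenitor controls. The plot of control levels sets all 31 members in this order. The experiments are separate tables with their own controls, and their levels were not tested against each other.

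**Figure D1:**
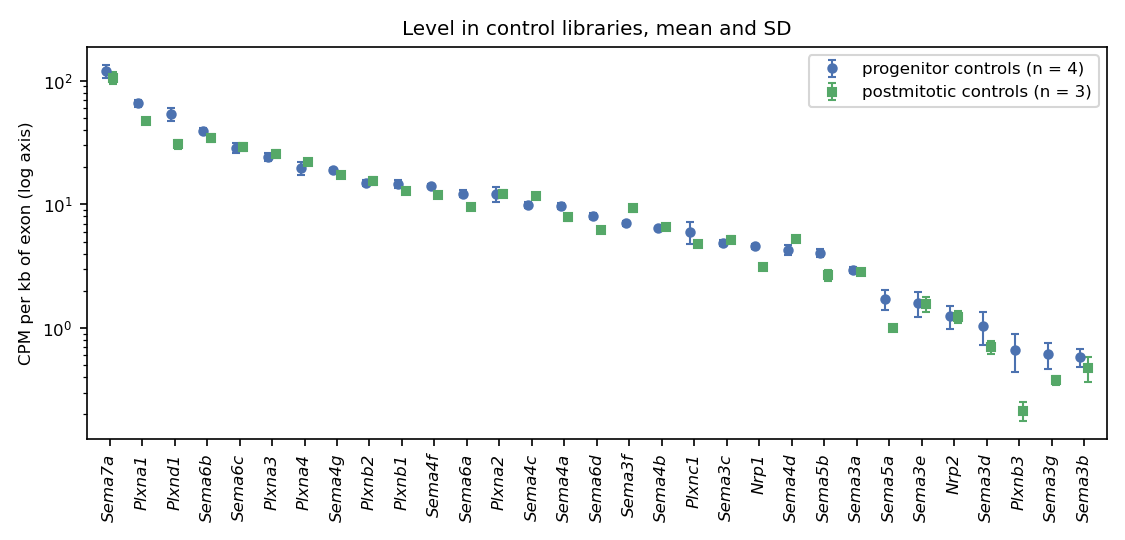
Mean level of each of the 31 members in control libraries, in CPM per kilobase of exon on a log axis, with the SD over 4 progenitor or 3 postmitotic controls. Sema7a was highest in both experiments, and Sema3b, Sema3g and Plxnb3 were lowest in both.

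In the progenitor experiment 12 of the 31 members rose, and edgeR called 0 lower. At an adjusted p under 0.05 (edgeR quasi-likelihood test, Benjamini-Hochberg over all genes), 23.4% of the 15295 tested genes were called, 12% as higher and 11.4% as lower; of the members, 38.7% were called. The rises were small, between 1.16-fold and 1.68-fold, and the median log2 fold change of the 31 was 0.10, against 0.00 over all tested genes. The 12 comprised 7 of 20 semaphorins (Sema3b, Sema3f, Sema4c, Sema4g, Sema6a, Sema6c and Sema6d), 4 of 9 plexins (Plxna3, Plxna4, Plxnb1 and Plxnb2) and 1 of 2 neuropilins (Nrp1). By class, 2 of 7 secreted class 3 semaphorins, 2 of 6 of class 4 and 3 of 4 of class 6 rose; neither class 5 member nor Sema7a was called. At an unadjusted p under 0.05 edgeR gave 1 lower member, Plxnd1, and DESeq2 and limma-voom each called that 1 gene lower. For 10 members every library labelled mutant lay above every control, and for 0 the reverse held; over all genes 13.7% and 13.3% separated in this way. In bulk tissue, a change in the share of cells that make a transcript and a change in the transcript per cell cannot be told apart.

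With the Y-linked sum as a covariate, 3 of the 31 members (9.68%) remained called in the progenitor experiment (Sema4c, Sema6a and Plxna3), a share near the 8.2% of all genes called in that fit. The log2 fold changes of the 12 then ranged from 0.21 for Plxna4 to 0.78 for Sema3b. The adjusted p of the other 9 ranged from 0.0608 to 0.271 (edgeR). Y-linked RNA was present in 3 of 4 libraries labelled mutant and in 0 of 4 controls. The covariate is thus separated from the label almost only by its spread among mutants 1 to 4 (0, 155, 99.3 and 170.3 CPM). In the same experiment the summed level of vessel markers was 330 to 498 CPM in controls and 394 to 578 CPM in the libraries labelled mutant, with a positive log2 fold change for 10 of 10 markers and 2 of them called. Excitatory neuron markers summed to 1789 to 2037 CPM in controls and 1501 to 1627 CPM in the libraries labelled mutant, with 3 of 8 called lower and 2 higher. Of 11 upper-layer markers 4 were called higher and 1 lower, and of 11 deep-layer and subplate markers 2 were called lower. Microglia markers had negative log2 fold changes in 10 of 10, with 2 called (119 to 183 CPM summed in controls, 99.6 to 139 CPM in the libraries labelled mutant). Interneuron markers had negative log2 fold changes in 7 of 10 and positive ones in 3, with 2 called lower. Their sums were 294 to 379 CPM in controls and 282 to 323 CPM in the libraries labelled mutant. Of 12 astrocyte and radial glia markers edgeR called 3 lower (Gfap, Slc1a2 and S100b) and 0 higher, with 6 positive and 6 negative log2 fold changes. At an unadjusted p under 0.05 edgeR gave 3 higher and 3 lower. DESeq2 also called Vim and Aldh1l1 higher, and limma-voom Vim. Oligodendrocyte lineage markers were split, with 3 of 10 called higher (Pdgfra, Cspg4 and Mog) and the other 7 negative, among them Mag (-0.80 ± 0.31) and Gpr17 (-0.31 ± 0.12), which edgeR did not call and DESeq2 called lower. The part of these values, and of the lower depth of the libraries labelled mutant, in the members' changes was not tested.

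In the postmitotic experiment 4 members were called: Nrp1 and Sema4c rose, and Sema3e and Sema7a fell. That is 12.9% of the 31, beside 1.96% of all 17775 tested genes (0.895% higher and 1.06% lower). The median log2 fold change of the 31 was 0.06, against a value close to 0 over all tested genes. Of the 9 plexins, 0 were called by edgeR, DESeq2 or limma-voom, and 2 had an unadjusted p under 0.05 in edgeR (Plxna2 and Plxnd1). For 13 members (41.9%) the groups did not overlap, 9 with the libraries labelled mutant higher and 4 lower; the background was 16.4%, with 7.99% higher and 8.43% lower. Without control 3 the count of called members was 2. Deep-layer and subplate markers moved in the same libraries: 4 of 11 (Tbr1, Foxp2, Tle4 and Ldb2) rose and the sum of the list was 455 to 475 CPM in controls and 554 to 689 CPM in the libraries labelled mutant, while 4 of 11 upper-layer markers fell. The subplate marker Nr4a2 went the other way, at -1.61 ± 0.40, which edgeR did not call (adjusted p = 0.199) and DESeq2 and limma-voom called lower. Of 8 excitatory neuron markers, edgeR called 2 higher and 3 lower. Their sums were 1487 to 1561 CPM in controls and 1473 to 1508 CPM in the libraries labelled mutant. DESeq2 and limma-voom each called Camk2a, Neurod2, Neurod6, Slc17a6 and Tbr1, also 2 higher and 3 lower. Astrocyte and radial glia markers had negative log2 fold changes in 12 of 12, with sums of 1292 to 1416 CPM in controls and 1120 to 1267 CPM in the libraries labelled mutant; edgeR and limma-voom called 0 of them, 6 had an unadjusted p under 0.05 in edgeR, and DESeq2 called 2 lower (Aqp4 and Fabp7). Meningeal fibroblast markers had positive log2 fold changes in 6 of 6 tested, with 0 called. Their sums were 15.7 to 32.0 CPM in controls and 21.8, 112 and 17.4 CPM in mutants 1, 2 and 3. The part of these shifts in the members' changes was not tested.

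**Figure D2:**
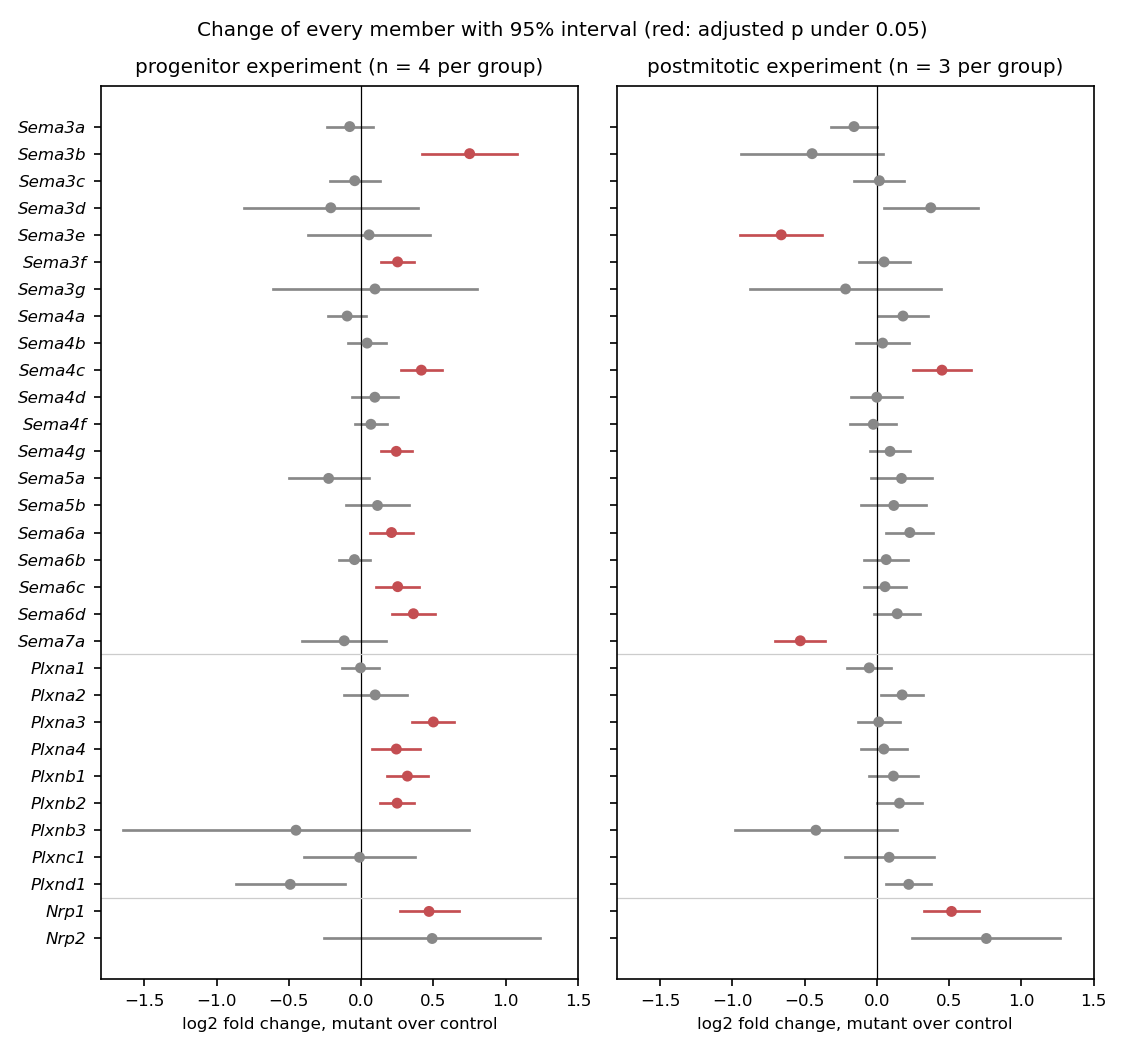
Log2 fold change of each of the 31 members (libraries labelled mutant over control) with its 95% interval, in the progenitor (4 against 4) and the postmitotic experiment (3 against 3). Red marks genes past an adjusted p of 0.05 and grey the others. In the progenitor experiment 12 members were called, each above 0, and in the postmitotic experiment 2 were called above and 2 below 0.

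The secreted class 3 ligands went different ways. Sema3b (chr9:107597674-107609229, minus strand, GRCm38/mm10), a weakly expressed ligand of neuropilin complexes, had 2.69, 2.40, 3.43 and 2.58 CPM in progenitor controls 1 to 4 and 4.96, 4.65, 4.19 and 4.88 CPM in libraries labelled mutant 1 to 4. Every library labelled mutant was above every control, on 63 to 91 counts per control library and 101 to 114 per library labelled mutant. The rise was 0.75 ± 0.15 on the log2 scale (± SE), 1.68-fold and the largest called rise of any member (edgeR, adjusted p = 0.00519). Among postmitotic libraries Sema3b had 2.02, 2.84 and 1.89 CPM in controls and 1.45, 1.89 and 1.63 CPM in the libraries labelled mutant, where the groups lay the other way round, the highest library labelled mutant just under the lowest control. That difference was -0.45 ± 0.23 and was not called (edgeR, adjusted p = 0.496).

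Sema3f, a ligand read mainly through Nrp2, rose in the progenitor experiment. It had 36.7, 37.0, 37.8 and 34.3 CPM in progenitor controls and 43.3, 43.4, 43.0 and 43.8 CPM in the libraries labelled mutant, a rise of 0.25 ± 0.05 (edgeR, adjusted p = 0.0056). The 4 libraries labelled mutant lay close together and above every control. Its postmitotic log2 fold change was 0.05 ± 0.08 (95% interval -0.13 to 0.23).

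Sema3e (chr5:14025276-14256689, plus strand), the secreted ligand that binds plexin D1 without a neuropilin, fell in the postmitotic experiment. Its level was 14.1, 12.9 and 16.8 CPM in controls and 8.36, 9.94 and 9.35 CPM in the libraries labelled mutant, so that all 3 of the latter were below all 3 of the former. The mean went from 14.6 ± 2.02 to 9.21 ± 0.799 CPM (SD, n = 3), a change of -0.66 ± 0.13 (edgeR, adjusted p = 0.0177). The call was lost without control 3 or without mutant 1, with adjusted p up to 0.109 (edgeR). It was also lost with libraries 1 and 2 of each group alone (edgeR, adjusted p = 0.112). The authors' deposited table, whose mean counts match those 4 libraries, gives -0.55 with an adjusted p of 0.202. Controls 1 and 2 held Y-linked RNA (165 and 133 CPM) and mutants 1 and 2 had 0 CPM. Within those 4 libraries, Y-linked RNA and the label therefore cannot be told apart. Among progenitor libraries Sema3e had 13.4, 17.9, 10.6 and 17.4 CPM in controls and 12.5, 19.3, 13.1 and 16.6 CPM in the libraries labelled mutant, with full overlap and a log2 fold change of 0.05 ± 0.19 (95% interval -0.37 to 0.48).

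Sema3a, the collapse-inducing ligand that acts through Nrp1, was not called in either experiment. In the postmitotic one it had 39.4, 38.4 and 39.8 CPM in controls and 35.2, 35.1 and 35.0 CPM in the libraries labelled mutant; the groups did not overlap, but the log2 fold change of -0.16 ± 0.07 did not pass the test (edgeR, adjusted p = 0.446). Its progenitor log2 fold change was -0.08 ± 0.07. Sema3c, Sema3d and Sema3g were not called either, with progenitor log2 fold changes of -0.04 ± 0.08, -0.21 ± 0.27 and 0.10 ± 0.32 and postmitotic ones of 0.02 ± 0.08, 0.37 ± 0.15 and -0.22 ± 0.31. The intervals of Sema3d and Sema3g were wide in the progenitor experiment (-0.81 to 0.39 and -0.61 to 0.80).

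Sema4c (chr1:36548639-36558349, minus strand), a transmembrane ligand of plexin B2, was the only ligand called higher in both experiments. It had 41.5, 46.3, 46.9 and 47.0 CPM in progenitor controls and 59.2, 66.5, 60.4 and 56.4 CPM in the libraries labelled mutant. All 4 libraries labelled mutant lay above all controls, and the rise was 0.42 ± 0.06 (edgeR, adjusted p = 0.00133). Postmitotic controls had 51.2, 56.4 and 54.8 CPM and the libraries labelled mutant 72.2, 84.5 and 65.0 CPM, again without overlap, a rise of 0.45 ± 0.09 (edgeR, adjusted p = 0.0211). The postmitotic call is less firm: leaving out control 1, 2 or 3 or mutant 1 or 2 took its adjusted p above 0.05, to at most 0.0924 (edgeR), and limma-voom gave 0.0537. An antisense transcript that overlaps it, D430040D24Rik, had 1.10 to 3.77 CPM in the postmitotic libraries, and whether the counting used strand is not known from the labels.

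Sema4g, another transmembrane ligand of the class, rose in the progenitor experiment from 166 ± 6.37 to 196 ± 8.30 CPM (n = 4), a log2 fold change of 0.24 ± 0.05 (edgeR, adjusted p = 0.00561). Its controls had 159.8, 174, 167 and 162 CPM and the libraries labelled mutant 191, 195, 208 and 191 CPM, without overlap. Its postmitotic value was 0.09 ± 0.06 and was not called. The other 4 of the class, Sema4a, Sema4b, Sema4d and Sema4f, had progenitor log2 fold changes of -0.10, 0.04, 0.09 and 0.07, and postmitotic ones of 0.18, 0.04, -0.00 and -0.02, none of them called. The class 5 ligands, which carry thrombospondin repeats, were not called: Sema5a had -0.23 ± 0.12 and 0.17 ± 0.10 in the progenitor and postmitotic experiments, and Sema5b 0.11 ± 0.10 and 0.12 ± 0.10.

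Class 6 semaphorins are transmembrane ligands of class A plexins and can also act as receptors. Of the 4, 3 rose in the progenitor experiment. Sema6d had 79.2, 91.6, 86.5 and 84.1 CPM in controls and 105, 99.7, 122 and 113 CPM in the libraries labelled mutant, all of the latter above all of the former, a rise of 0.36 ± 0.07 (edgeR, adjusted p = 0.0037). Sema6c had 193, 162, 173 and 157 CPM in controls and 202, 196, 219 and 198 CPM in the libraries labelled mutant; its groups did not overlap, and the rise was 0.25 ± 0.07 (edgeR, adjusted p = 0.0207). Without control 2, control 4 or mutant 3 the call of Sema6c was lost, with adjusted p up to 0.0681 (edgeR). Sema6a had 97.8, 108, 114 and 108 CPM in controls and 139, 118, 124 and 114 CPM in the libraries labelled mutant; here the groups overlapped, since control 3 and mutant 4 were nearly level, and the rise was 0.21 ± 0.07 (edgeR, adjusted p = 0.0455). The Sema6a call was lost without any one of controls 1, 2 and 4 and mutants 1, 2 and 3, with adjusted p up to 0.125 (edgeR), and in limma-voom (adjusted p = 0.0526). Sema6b, the most abundant of the class, had -0.05 ± 0.05. Of the class, none was called in the postmitotic experiment by edgeR, and 1 had an unadjusted p under 0.05: Sema6a at 0.23 ± 0.08 (edgeR, adjusted p = 0.206), with groups that did not overlap.

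Sema7a (chr9:57940112-57962865, plus strand), the most abundant member per length, fell in the postmitotic experiment. Its level was 307, 359.6 and 382 CPM in controls and 246, 232 and 248 CPM in the libraries labelled mutant. The 3 libraries labelled mutant lay close together and below every control, with means of 349.5 ± 38.6 and 242 ± 8.94 CPM (SD, n = 3). The change was -0.53 ± 0.08 on the log2 scale (edgeR, adjusted p = 0.00319), and it remained called with any 1 library left out, with adjusted p up to 0.0262. Among progenitor libraries Sema7a had 433, 432, 384 and 331 CPM in controls and 321, 302, 429 and 405 CPM in the libraries labelled mutant. Mutants 1 and 2 were below every control there, and mutants 3 and 4 were among the controls, so that the change of -0.12 ± 0.13 was not called (95% interval -0.41 to 0.17). Its receptor Plxnc1 was not called in either experiment (-0.01 ± 0.17 and 0.09 ± 0.14).

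**Figure D3:**
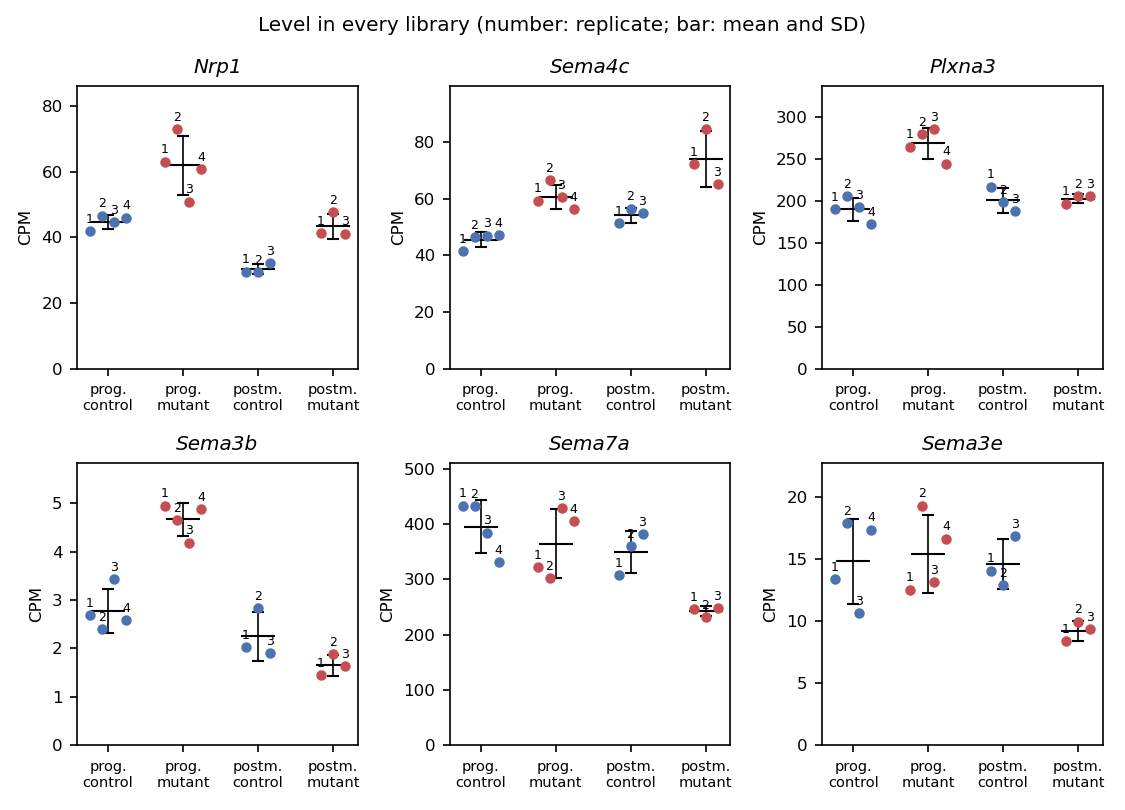
CPM in every library of members that were called, 1 panel per gene, with controls and libraries labelled mutant of the progenitor (n = 4 each) and postmitotic (n = 3 each) experiments; bars give the mean and SD. Nrp1 and Sema4c were higher in the libraries labelled mutant of both experiments, without overlap, whereas Plxna3 and Sema3b were higher in the progenitor experiment and Sema3e and Sema7a lower in the postmitotic one.

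Among the receptors, Plxna3 (chrX:74329066-74344689, plus strand), a class A plexin that pairs with Nrp2, had the smallest p of any member in the progenitor experiment. Progenitor controls had 190.1, 205, 192 and 172 CPM and the libraries labelled mutant 264, 279, 285 and 244 CPM, so the lowest of the latter was well above the highest of the former. The means were 189.7 ± 13.7 and 268 ± 18.4 CPM (SD, n = 4), a rise of 0.50 ± 0.07 (edgeR, adjusted p = 0.000532). Plxna3 lies on the X chromosome. Mutant 1, which like the controls had no Y-linked RNA above 0.0381 CPM and had Xist, was at 264 CPM. The fit with the Y-linked sum as covariate gave 0.52 (edgeR, adjusted p = 0.0142), and it rests almost only on the spread of that sum among mutants 1 to 4. The part of X-linked and Y-linked differences between libraries in the rise of Plxna3 was not tested. Among postmitotic libraries Plxna3 had 217, 198 and 187 CPM in controls and 196, 205 and 205 CPM in the libraries labelled mutant; the latter lay among the controls, at 0.01 ± 0.07 (95% interval -0.13 to 0.16).

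Plxna4, which transduces Sema3a with Nrp1, had 240.1, 319, 274 and 269 CPM in progenitor controls and 323, 317, 319.7 and 344 CPM in the libraries labelled mutant. Control 2 was as high as the libraries labelled mutant, so the groups overlapped, and the rise was 0.24 ± 0.08 (edgeR, adjusted p = 0.0377). This call was lost without any 1 of 7 of the 8 libraries (all but control 2), with adjusted p up to 0.0924 (edgeR). The abundant Plxna1 had -0.00 ± 0.06 and -0.05 ± 0.07 in the progenitor and postmitotic experiments, with 95% intervals of -0.13 to 0.12 and -0.20 to 0.10. Plxna2, the class A plexin known as a receptor of Sema6a, had 0.10 ± 0.10 and 0.17 ± 0.07 and was not called in either; its postmitotic groups did not overlap.

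The class B plexins Plxnb1 and Plxnb2, receptors of class 4 semaphorins, rose in the progenitor experiment beside Sema4c and Sema4g. Plxnb1 had 124, 145, 149 and 142 CPM in controls and 171, 164, 189 and 175 CPM in the libraries labelled mutant, a rise of 0.32 ± 0.07 (edgeR, adjusted p = 0.00565). Plxnb2 had 109, 111, 124 and 116 CPM in controls and 141, 135, 131 and 139.6 CPM in the libraries labelled mutant, a rise of 0.25 ± 0.05 (edgeR, adjusted p = 0.00742). Neither gene's groups overlapped. Their postmitotic values were 0.11 ± 0.08 and 0.16 ± 0.07, and neither was called. Plxnb3, a plexin of the oligodendrocyte lineage, was scarce and variable, at -0.45 ± 0.52 and -0.42 ± 0.26.

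Nrp1 (chr8:128358604-128503363, plus strand), the coreceptor for Sema3a and for vascular endothelial growth factor, was the only receptor gene called in both experiments. Progenitor controls had 42.0, 46.6, 44.6 and 46.0 CPM and the libraries labelled mutant 63.2, 73.1, 50.9 and 60.9 CPM. All 4 of the latter were above all controls, mutant 3 by the least, and the means were 44.8 ± 2.07 and 62.0 ± 9.09 CPM (SD, n = 4). The rise was 0.47 ± 0.09 (edgeR, adjusted p = 0.00513). Postmitotic controls had 29.6, 29.4 and 32.2 CPM and the libraries labelled mutant 41.3, 47.8 and 41.2 CPM, again without overlap, with means of 30.4 ± 1.56 and 43.4 ± 3.76 CPM (SD, n = 3). That rise was 0.52 ± 0.09, or 1.43-fold (edgeR, adjusted p = 0.00661). Both calls remained whichever library was left out, and the highest adjusted p among these fits was 0.0491 in the postmitotic experiment (edgeR). With the Y-linked sum as a covariate, the progenitor rise of Nrp1 was no longer called. Endothelial cells also make Nrp1. Beside the vessel marker sums given above for the progenitor experiment, those of the postmitotic one were 239 to 282 CPM in controls and 215 to 262 CPM in the libraries labelled mutant, and their part in the Nrp1 changes was not tested.

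Nrp2 and Plxnd1 were not called by edgeR in either experiment, and both were taken up after their values had been seen, because their libraries disagreed within groups. Nrp2, the coreceptor for Sema3f, had 10.3, 15.3, 17.7 and 15.6 CPM in progenitor controls but 29.7, 26.9, 13.0 and 13.3 CPM in the libraries labelled mutant: mutants 1 and 2 lay above all controls, and mutants 3 and 4 among them (0.49 ± 0.32; edgeR, adjusted p = 0.312). Its postmitotic levels were 12.7, 15.9 and 15.1 CPM in controls and 16.1, 28.6 and 29.1 CPM in the libraries labelled mutant, with mutant 1 near the controls and the other 2 well above (0.76 ± 0.22; edgeR, adjusted p = 0.204). DESeq2 called Nrp2 higher in the postmitotic experiment.

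Plxnd1 (chr6:115954811-115995005, minus strand), the Sema3e receptor, had 407, 427, 404 and 325 CPM in progenitor controls and 231, 217, 353 and 312 CPM in the libraries labelled mutant. Mutants 1 and 2 were far below every control, mutant 3 was above control 4, and mutant 4 was just under it. The difference was -0.49 ± 0.16 (95% interval -0.87 to -0.11) and missed the threshold (edgeR, adjusted p = 0.0645). It passed with DESeq2 (adjusted p = 0.0389), with limma-voom (0.0303), without the robust step of edgeR (0.0359) and without mutant 3 (edgeR, 0.0204); over all alternatives the adjusted p ranged from 0.0204 to 0.201. The authors' deposited table gives -0.50 with an adjusted p of 0.0381. Among postmitotic libraries Plxnd1 had 205, 241 and 229.8 CPM in controls and 249, 269 and 268 CPM in the libraries labelled mutant, all of the latter above all of the former, at 0.22 ± 0.07 (edgeR, adjusted p = 0.203). Mutants 1 and 2 of the progenitor experiment thus stood apart from mutants 3 and 4 in Plxnd1, Nrp2 and Sema7a alike, a pattern seen in the values and not tested.

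**Figure D4:**
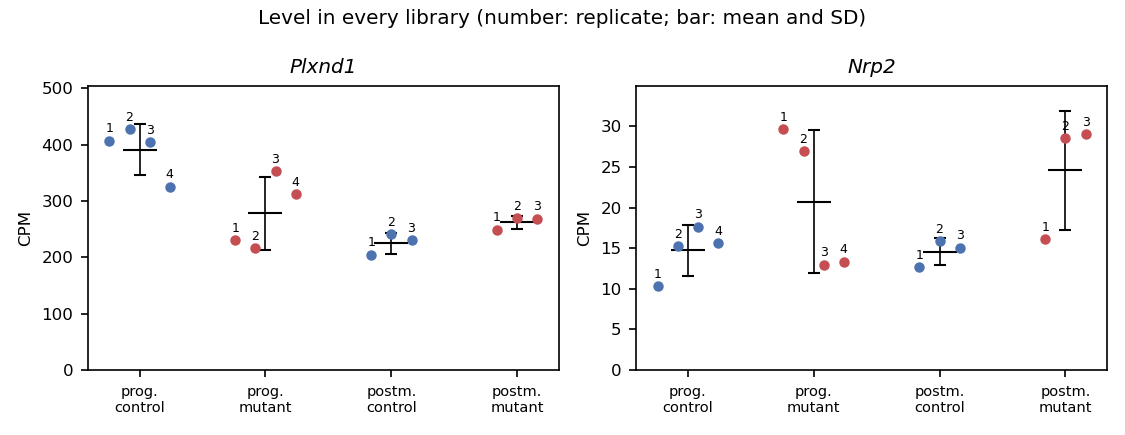
CPM of Plxnd1 and Nrp2 in every library (numbers give the replicate) with the mean and SD of each group. In the progenitor experiment mutants 1 and 2 lay below all controls for Plxnd1 and above all controls for Nrp2, and mutants 3 and 4 lay nearer the controls.

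Whether a member changed by a different amount in the 2 experiments was tested as an interaction over all 14 libraries. Of the 31 members 2 were called, beside 6.94% of 15643 tested genes (3.1% higher and 3.84% lower), and 9 members had an unadjusted p under 0.05. Sema3b differed by -1.20 ± 0.26 (postmitotic minus progenitor log2 fold change, 95% interval -1.74 to -0.65; edgeR, adjusted p = 0.0119). Plxna3 differed by -0.49 ± 0.10 (95% interval -0.70 to -0.28; edgeR, adjusted p = 0.00833). Both calls remained with any 1 library left out, with adjusted p up to 0.0402 for Sema3b and 0.0321 for Plxna3. The interaction was not fitted with the Y-linked sum as a covariate. With that covariate in the progenitor fit, the rise of Plxna3 was still called and that of Sema3b was not. The members that fell in the postmitotic experiment alone did not pass this test: the difference was -0.72 ± 0.26 for Sema3e (95% interval -1.26 to -0.17; edgeR, adjusted p = 0.106) and -0.41 ± 0.17 for Sema7a (95% interval -0.78 to -0.04; edgeR, adjusted p = 0.167). Plxnd1, whose fold changes had opposite signs, differed by 0.71 ± 0.21 (95% interval 0.26 to 1.17; edgeR, adjusted p = 0.0591). For the genes that rose in both experiments the interval of the difference was -0.24 to 0.33 for Nrp1 and -0.21 to 0.28 for Sema4c, centred near 0. The experiments differ in Cre source, plasmid, timing and sequencing table together, and these cannot be told apart.

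Lists of coreceptors, transducers and proteases set the members beside other genes of the pathway. Of 14 genes for other coreceptors and non-plexin receptors, 12 were tested in the progenitor experiment, where 1 rose and 1 fell (16.7% called, under the 23.4% of all genes). Cntn2, an axonal adhesion protein, rose from 156 ± 9.04 to 201 ± 12.8 CPM, by 0.37 ± 0.06 (edgeR, adjusted p = 0.00174). It also rose in the postmitotic experiment, as 1 of 13 tested, from 172 ± 4.27 to 219 ± 19.6 CPM, by 0.35 ± 0.07 (edgeR, adjusted p = 0.0211). Met, a receptor tyrosine kinase that associates with class B plexins, fell in the progenitor experiment, with a log2 fold change of -0.23 ± 0.08 (edgeR, adjusted p = 0.0478). DESeq2 called Met as well, and limma-voom did not. Over the 3 lists together the postmitotic count was 1, the gene Cntn2, beside 1.96% of all tested genes. That count became 0 without control 1, 2 or 3 or mutant 2, and 2 without mutant 3.

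Of 43 plexin signal transducers, 3 rose and 6 fell in the progenitor experiment (20.9% called, also under that background), with a median log2 fold change of -0.01. Those that rose were Mical2 (0.41 ± 0.04) and Mical3 (0.28 ± 0.05), oxidases that disassemble actin filaments downstream of class A plexins, and the actin regulator Enah (0.30 ± 0.06). Among those that fell were the kinase Cdk5 (-0.25 ± 0.06) and the collapsin response mediator Dpysl4 (-0.20 ± 0.06). The edgeR adjusted p of these 5 ranged from 0.000139 for Mical2 to 0.0279 for Dpysl4. For the postmitotic experiment edgeR called 0 of the 43, with 5 at an unadjusted p under 0.05; limma-voom also called 0 and DESeq2 1. Of 7 proteases that process semaphorins or plexins 1 was called (14.3%): Pcsk6, a proprotein convertase, fell in the progenitor experiment, with a log2 fold change of -0.44 ± 0.14 (edgeR, adjusted p = 0.0387). Of the 7, 0 were called in the postmitotic experiment by edgeR, DESeq2 or limma-voom, with 1 at an unadjusted p under 0.05 in edgeR. Over the 3 lists together (12, 43 and 7 tested genes) 12 genes were called in the progenitor experiment, beside 23.4% of all tested genes. The count was 6 without mutant 1, and 3 with the Y-linked sum as a covariate, a fit that called 8.2% of all genes.

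The authors' deposited results list 13 members past an adjusted p of 0.05 in the progenitor experiment, the 12 called here and Plxnd1, and 3 in the postmitotic one (Nrp1, Sema4c and Sema7a). The mean counts of their postmitotic table match libraries 1 and 2 of each group. Within these libraries Y-linked RNA and the label cannot be told apart, for these 3 genes as for Sema3e.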

How the data were processed

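Polyadenylated RNA of layer II/III tissue was sequenced as paired reads of 150 bases with a directional kit, per the labels' protocols. The authors deposited raw counts of reads per symbol, in 1 table per experiment. The submitters' processing notes name HISAT2, featureCounts, DESeq2 and build mm10, without versions, annotation or strand setting. The authors also deposited DESeq2 tables of log2 fold changes and p-values, per the file headers; the symbols of 4 plexins were restored in them, because the letters na had become 0. Mean counts in the authors' deposited postmitotic table matched libraries 1 and 2 of each group within 0.1% (100% of the 17372 genes whose mean exceeds 10), and those of the progenitor table matched all 8 libraries. There were 0 columns of other samples.

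Each table was fitted whole with edgeR 4.0.16 in R 4.3.3 (filterByExpr, TMM, robust glmQLFit, glmQLFTest, Benjamini-Hochberg adjustment), with calls at an adjusted p under 0.05. Each SE is the log2 fold change divided by the square root of F. CPM use TMM-scaled library sizes, and levels per kb use merged exon length from GENCODE M21 on GRCm38/mm10. The interaction was fitted over 14 libraries and the 24690 symbols in both tables. The alternatives were DESeq2 1.42.0, limma-voom (limma 3.58.1), RLE factors, no low-count filter, no robust step, the replicate number as a block, the summed CPM of Y-linked genes as a covariate, libraries 1 and 2 alone, and leaving out each library. Y-linked and 2-library values of single members, all alternatives for Plxnd1 and the pathway lists, and those for Lhx2 other than leaving out libraries, were added after seeing the data. The procedure was tested on simulated data.

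The members, lists and tests were chosen with earlier results of these data known. Every member was accounted for, and those called in any of the 3 fits were to be given in full; of the pathway lists, at most 4 called genes in each direction, those of smallest p, were named, though some that this takes in are not reported here. Total counts, 21605777 to 29497595 per library, set the counting precision; chi-square per degree of freedom between replicates of a group was 6.74 to 20.6, and each library was kept as its own replicate.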

Additional observations from a re-analysis of the deposited data

Results flagged for a closer look

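Progenitor control 1 lay apart from the other 3 controls for 4 members. Plxnc1 had 35.0 CPM there against 54.1 to 55.2 in the others, Sema3c 32.2 against 35.8 to 36.1, Sema4c 41.5 against 46.3 to 47.0, and Sema6b 169 against 152 to 153. With groups of 4, 62 groups of values were looked at and 4 stood out by Dixon's test at the 95% level, and chance gives about 1 in 20. Of these genes only Sema4c was called in the progenitor experiment, and its call held with control 1 left out.

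The changes of Sema3b and Plxna3 differed between the experiments by a test of the difference itself, by -1.20 and -0.49 on the log2 scale (postmitotic minus progenitor). Both genes rose in the progenitor experiment, and neither was called in the postmitotic one.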

How the results depend on the processing

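The 12 progenitor members numbered 11 to 13 under the other tools, factors, filter and fits with no covariate, 9 to 12 without 1 library, and 3 with the Y-linked covariate, under which 1254 of all genes were called. All genes numbered 2383 to 3712 in the progenitor and 160 to 467 in the postmitotic experiment without 1 library (2383 without progenitor mutant 3), and 723 in the postmitotic one without a low-count filter. Postmitotic members numbered 2 to 4 without 1 library and 3 to 5 otherwise. In the interaction, DESeq2 called 1643 genes and 4 members, the replicate block 659 genes, and leaving out 1 library gave 598 to 1481 genes and 2 to 3 members.

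Same-numbered control and mutant libraries correlated from -0.44 to 0.07, and differently numbered ones from -0.45 to 0.54. These values cannot show whether the replicate numbers mark pairs. With the replicate block 11 progenitor, 5 postmitotic and 3 interaction members were called, and Sema6a was no longer called (edgeR, adjusted p = 0.0804). Lhx2 in the postmitotic experiment was at 0.29 with the block and 0.25 with libraries 1 and 2, no longer past the threshold, and at 0.27 to 0.32 without 1 library; in the progenitor experiment it was at -0.015 to 0.0798. The cause of these shifts was not tested. The small counts of Sema3b, Sema3g and Plxnb3 limit the precision of their changes.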
